A study of Oryza sativa with 18 samples.

Results

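Pentatricopeptide repeat (PPR) genes were followed in the leaves of 3 rice genotypes as the soil dried. Of 39049 genes in the expression table, 256 are described as pentatricopeptide repeat genes, and the 146 that reached an FPKM of 3 in 1 or more of 9 columns are described here. FPKM is the number of sequenced fragments scaled by transcript length and library size, so levels can be set side by side between genes. The genotypes were H471, a drought-tolerant introgression line that carries segments of P28 in an HHZ background, P28, the tolerant donor, and HHZ, the drought-sensitive recurrent parent. Plants at tillering were well watered (control), or were sampled after 1 day of drought, when soil water content was 15%, or after 3 days, when it was 10%. Each genotype and condition had 2 RNA libraries, 18 in all. The study's methods give 3 top leaves for each sample and no number of plants per library. The authors pooled both libraries into 1 FPKM, so a difference between 2 columns has no SD, no n and no p-value here. H471 is a single line, so what is particular to it cannot be told apart from what any other introgression line of this cross would show.

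PPR proteins are built from tandem copies of a short helical repeat, each of which reads a single base of an RNA. They form one of the largest gene families of land plants, are encoded in the nucleus and work for the most part in chloroplasts and mitochondria, where they edit, splice, cleave, stabilise or help to translate organelle transcripts. In leaves they are best known for the expression of plastid genes for photosynthesis and for the plastid ribosome. Mutants of many members arrest as embryos, which is the origin of the EMB names below. The symbols are those of the best Arabidopsis match, and a role given for a symbol was found in Arabidopsis unless stated otherwise. The annotation places some Arabidopsis PPR proteins under tetratricopeptide-like repeats, among them the matches of CRR21 and OTP84, both plastid editing factors, and these genes are not members.

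The median-ratio scaling factors of the 9 columns lay between -0.02 and 0.03 on the log2 scale, and no column stood apart. The leaf label was checked against the light-harvesting proteins of photosystem II, whose 5 expressed genes summed to 3990 to 21687 FPKM in every column. A linear model (limma) was fitted to log2(FPKM + 1) of the 20568 genes that reached an FPKM of 1 in any column, with terms for genotype and condition and 4 residual degrees of freedom. In this fit the 3 genotypes stand in as replicates for drought, and the 3 conditions stand in as replicates for genotype. The p-values therefore reflect how far genotypes or conditions vary, and carry no information on plants. A gene was called at a Benjamini-Hochberg adjusted p under 0.05 over all 20568 genes. Adding 1 understates the differences of weakly expressed genes, and most PPR genes are such genes.

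PPR transcripts were scarce. The median of the members' mean FPKM over the 9 columns was 5.05, against 14.7 for all 17470 genes that reached an FPKM of 3 in any column. Means under 10 were found for 112 members (76.7%), against 39.2% of those genes. Together they made up 0.137% to 0.166% of the FPKM of a column. These levels partly chose the members, so they are a description. Of the 110 annotated genes below the limit, 25 stayed under an FPKM of 1 and 13 were listed at 0 throughout.

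A few genes carried much of the members' RNA. The 3 members with the highest mean FPKM over all columns took 12.7% to 23.4% of the members' summed FPKM in a column. The 10 with the highest means took 30% to 45.4%. The highest mean was that of LOC_Os10g10170, the match of MRL1, which in Arabidopsis and the alga Chlamydomonas stabilises the plastid transcript for the large subunit of Rubisco. It stood at 71.6, 102.1 and 66.9 FPKM in H471 under control conditions, after 1 day and after 3 days, at 68.6, 117.4 and 61.5 in P28, and at 67.8, 115.4 and 82.6 in HHZ. In each genotype the 1-day leaves were the highest. LOC_Os01g48380 (match of EMB2279) followed with a mean of 80.02 FPKM and LOC_Os04g49350, a PPR gene with no symbol, with 78.4 FPKM, but each was high in other conditions, as described below. LOC_Os05g28500 averaged 58.3 FPKM, LOC_Os07g36180 43.5 FPKM and LOC_Os08g24390 42.8 FPKM. LOC_Os04g58780, LOC_Os01g55290 (match of EMB1417), LOC_Os03g63910 and LOC_Os12g44170 completed the 10 highest with means of 26.4 to 37.8 FPKM.

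Among the highest, LOC_Os12g44170 varied least, between 22.7 and 29.5 FPKM in all 9 columns. Across the 146 members the highest column was under 1.5 times the lowest in 15 genes, under 2 times in 58 and at least 5 times in 20. The steadiest member was LOC_Os02g03970, at 12.4 to 15.6 FPKM, a range of 1.26-fold. The widest range, 40.4-fold, belonged to LOC_Os01g45840.

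**Figure D1:**
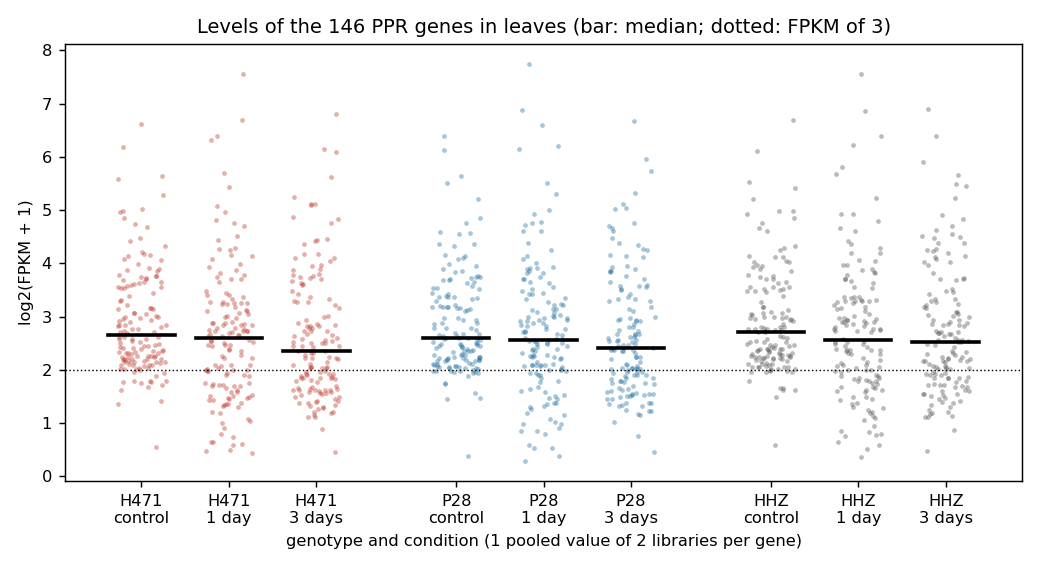
Level of each of the 146 PPR genes, as log2(FPKM + 1) on the vertical axis, in each genotype and condition. Each point is 1 gene (the authors' pooled value of 2 libraries), bars are medians and the dotted line is the FPKM of 3 that chose the members. The medians lie between 4.15 FPKM (H471 after 3 days) and 5.56 FPKM (HHZ control), and more genes lie below the line in the drought columns than in the controls.

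The first comparison asked which PPR genes differed after 1 day of drought. limma called 29 members higher (19.9%; 27.4% of all genes tested) and 56 lower (38.4%; 30.8% of all genes tested). The median fitted difference of the members was -0.16 on the log2 scale, against -0.02 over all genes. Of the called members, 5 higher ones (11.5% of all genes tested) and 27 lower ones (12.5% of all genes tested) differed by at least 1 on the log2 scale. The rule that chose the members set part of this. For 27 members an FPKM of 3 was reached in control columns alone, so their highest control value lay above every drought value. Of these 27, 25 are among the 56. By a mean FPKM of at least 3, which treats the columns alike, 29 of 106 genes were called lower (27.4%; 31.9% of all genes with that mean) and the median was 0.02. Without the P28 columns 18 members were called higher (22% of all genes tested), and without the HHZ columns 19 (20.3% of all genes tested).

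The 5 members with the largest increase were LOC_Os04g49350, LOC_Os11g05980, LOC_Os07g36180, LOC_Os02g52220 and LOC_Os12g10184, none of which has an assigned role. After 1 day LOC_Os04g49350 reached 187.4, 213.7 and 186.9 FPKM in H471, P28 and HHZ, against 12.1, 12.6 and 19.2 FPKM in the controls of the same genotypes. It stood 9.76-fold to 17.0-fold over the control of its genotype, and the fitted log2 difference was 3.68 ± 0.17 (SE; limma adjusted p = 5.58e-06). LOC_Os07g36180 showed the same order at a higher base, with 78.4, 96.2 and 83.0 FPKM after 1 day in H471, P28 and HHZ, against 27.7, 19.5 and 26.0 FPKM in their controls (1.78 ± 0.14, limma adjusted p = 5.66e-05). The lowest 1-day and the highest control value were 186.9 and 19.2 FPKM for LOC_Os04g49350, and 78.4 and 27.7 FPKM for LOC_Os07g36180.

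LOC_Os02g52220 was at 9.60, 10.8 and 10.8 FPKM after 1 day in H471, P28 and HHZ, against 1.58, 2.88 and 3.13 FPKM in their controls. LOC_Os11g05980 passed the level rule through its 1-day columns alone, with 4.70, 4.24 and 4.28 FPKM against 0.471, 0.313 and 0.497 FPKM in the controls, so that the choice of members fixed its direction. LOC_Os12g10184 rose less, to 25.0, 30.9 and 24.3 FPKM against 12.6, 11.9 and 13.6 FPKM (1.01 ± 0.16, limma adjusted p = 0.00148). The MRL1 match rose as well, by 0.68 ± 0.11 on the log2 scale (limma adjusted p = 0.00151).

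The members with the largest decrease after 1 day were LOC_Os01g45840, LOC_Os03g55840, LOC_Os03g56400, LOC_Os01g17320 and LOC_Os03g11690. LOC_Os01g45840 was nearly absent, at 0.526, 0.216 and 0.287 FPKM in H471, P28 and HHZ, against 5.78, 5.22 and 6.02 FPKM in their controls (-2.32 ± 0.14, limma adjusted p = 1.5e-05). LOC_Os03g55840, a member through its control columns alone as are LOC_Os03g56400 and LOC_Os03g11690, was at 0.359, 0.313 and 0.796 FPKM against 5.16, 5.25 and 5.17 FPKM in the controls. In both genes every 1-day value was at most 0.154 of its control. In bulk leaf RNA, less RNA per cell and fewer cells that express a gene cannot be told apart, here and below.

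LOC_Os01g17320 is 1 of 3 members whose best match is PPR596, a mitochondrial protein that affects the editing of a ribosomal protein transcript. It fell to 3.20, 3.73 and 3.92 FPKM after 1 day in H471, P28 and HHZ, against 14.8, 13.4 and 18.2 FPKM in their controls (-1.83 ± 0.10, limma adjusted p = 1.01e-05). Among the abundant members, the EMB2279 match LOC_Os01g48380 fell to 32.8, 38.7 and 36.3 FPKM, against 96.8, 82.9 and 102.3 FPKM in the controls (-1.36 ± 0.10, limma adjusted p = 3.76e-05). LOC_Os03g63910 stood at 8.50, 12.1 and 12.7 FPKM, against 37.8, 35.9 and 36.1 FPKM in the controls. The EMB2279 match was the most abundant member in the control and 3-day leaves of all 3 genotypes, and LOC_Os04g49350 was the most abundant in the 1-day leaves.

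**Figure D2:**
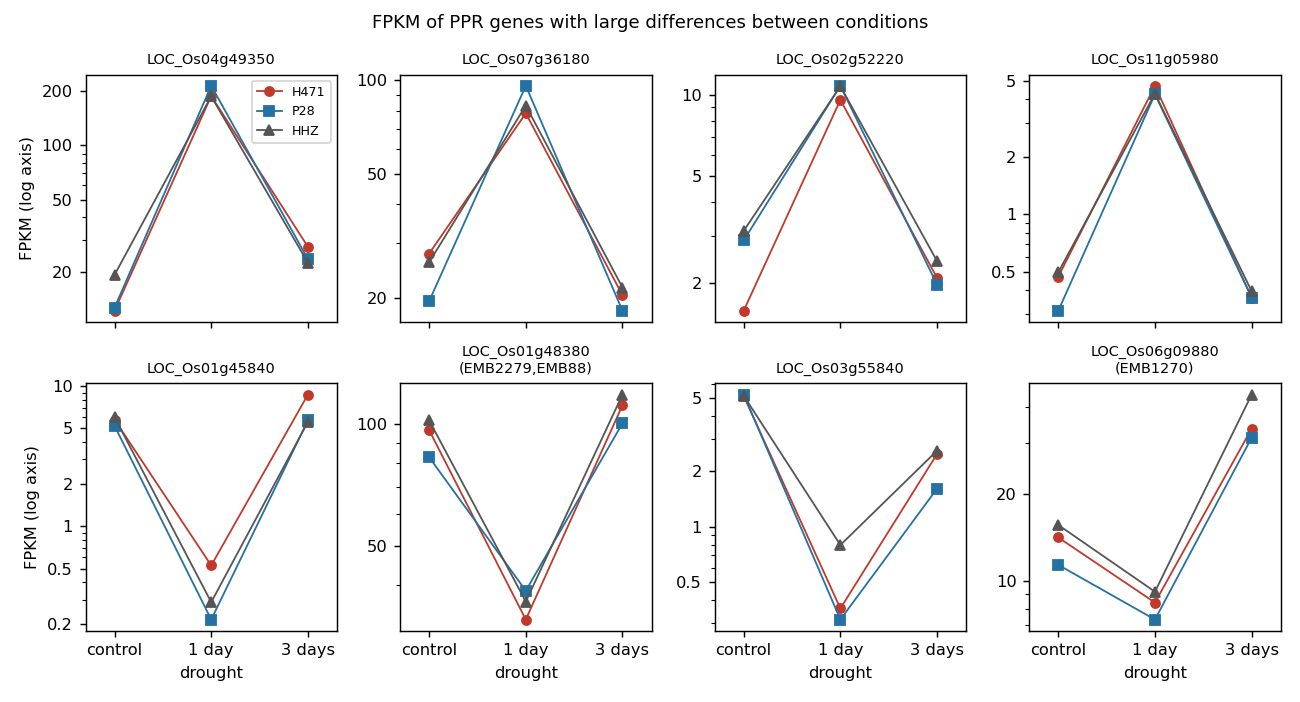
FPKM (vertical log axes) of 8 PPR genes in the control and after 1 and 3 days of drought (horizontal axes), with 1 line per genotype through the authors' pooled values. The genes of the upper row peak after 1 day in all 3 genotypes, and those of the lower row are lowest after 1 day. LOC_Os11g05980 is a member through its 1-day columns alone, and LOC_Os03g55840 through its control columns alone. For both, the choice of members fixed the direction. The EMB1270 match, in the lower row, reaches 31.3 to 44.1 FPKM after 3 days.

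The second comparison, 3 days of drought against control, gave fewer increases. limma called 15 members higher (10.3%; 27% of all genes tested) and 57 lower (39.0%; 30.1% of all genes tested), with a median fitted difference of -0.21 against -0.03 over all genes. Of these, 1 higher member (9.08% of all genes tested) and 9 lower ones (12.4% of all genes tested) differed by at least 1 on the log2 scale. All 27 members that reached an FPKM of 3 in control columns alone are among the 57, and by a mean FPKM of at least 3 the number lower was 28 of 106 (26.4%; 31.3% of all genes with that mean). The number called higher was 6 without the H471 columns, 7 without P28 and 3 without HHZ. Of all genes tested, 20%, 22.3% and 17.8% were called higher in these fits. The number called lower was 37 without H471 and 36 without HHZ (22.5% and 21.4% of all genes tested).

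The member that rose most was LOC_Os06g09880, the match of EMB1270, which is needed for the splicing of plastid introns. After 3 days it was at 33.6, 31.3 and 44.1 FPKM in H471, P28 and HHZ, against 14.1, 11.4 and 15.6 FPKM in the controls (1.34 ± 0.08, limma adjusted p = 2.63e-05). After 1 day the same gene had been lower than in the controls, at 8.40, 7.34 and 9.16 FPKM (-0.65 ± 0.08, limma adjusted p = 0.000527). No other member called higher after 3 days reached a difference of 1.

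LOC_Os06g07550 rose by 0.83 ± 0.10 on the log2 scale (limma adjusted p = 0.000553), with 13.9, 8.79 and 16.5 FPKM in H471, P28 and HHZ, against 7.91, 5.08 and 7.35 FPKM in the controls. The remaining largest increases were those of LOC_Os04g49350 (0.72 ± 0.17), LOC_Os03g58100 (0.61 ± 0.16), the match of the plastid editing factor OTP85, and LOC_Os03g18620 (0.56 ± 0.15), and none of these calls held in each fit that left out 1 genotype. The OTP85 match was at 13.6, 16.5 and 19.9 FPKM after 3 days in H471, P28 and HHZ, against 12.2, 9.28 and 10.2 FPKM in the controls. H471 differed least between these conditions.

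The largest decreases after 3 days were those of LOC_Os03g11690, LOC_Os04g49520, LOC_Os01g01115, LOC_Os06g47920 and LOC_Os11g34130. LOC_Os03g11690 was at 1.51, 0.690 and 0.842 FPKM in H471, P28 and HHZ, against 4.03, 3.67 and 4.09 FPKM in the controls. It and LOC_Os01g01115 are members through control columns alone, so the choice of members fixed their direction and no test is given for them. LOC_Os11g34130, more abundant, was at 6.11, 10.3 and 8.33 FPKM against 21.4, 19.6 and 16.5 FPKM in the controls (-1.14 ± 0.19, limma adjusted p = 0.00195). LOC_Os04g49520 was at 6.06, 5.37 and 4.57 FPKM against 16.6, 16.0 and 10.1 FPKM (-1.24 ± 0.27, limma adjusted p = 0.0071), and its call was lost without the H471 or the P28 columns. LOC_Os06g47920 was at 1.52, 1.34 and 1.27 FPKM against 4.05, 4.36 and 4.45 FPKM in the controls (-1.15 ± 0.11, limma adjusted p = 0.000155), and its 1-day difference of -0.29 ± 0.11, in the same direction, had a limma adjusted p of 0.0542.

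Comparing 3 days with 1 day uses no control column. limma called 33 members higher after 3 days than after 1 day (25.3% of all genes tested) and 39 lower (24.4% of all genes tested), and 8 in each direction differed by at least 1 on the log2 scale (6.91% of all genes tested higher and 10.6% lower). The genes with large 1-day differences led both lists. LOC_Os04g49350 fell by 2.96 on the log2 scale between the drought days, to 27.4, 23.4 and 22.4 FPKM after 3 days in H471, P28 and HHZ. LOC_Os01g45840 was 2.50 ± 0.14 higher after 3 days (limma adjusted p = 1.51e-05), at 8.72, 5.70 and 5.57 FPKM, and its 3-day difference from control was 0.18 ± 0.14 (limma adjusted p = 0.309).

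The EMB1270 match (2.00 ± 0.08), LOC_Os03g63910 (1.59 ± 0.14), the EMB2279 match (1.59 ± 0.10) and LOC_Os11g24570 (1.33 ± 0.08), the match of EMB1796, followed among those higher after 3 days. LOC_Os07g36180 (-2.04 ± 0.14), LOC_Os02g52220 (-1.85 ± 0.15) and LOC_Os03g49464 (-1.39 ± 0.10) followed among those lower. LOC_Os11g05980 was lower as well, but it is a member through its 1-day columns alone. The choice of members thus fixed its direction and no test is given for it. Without the HHZ columns 21 members were called higher (15.5% of all genes tested). The number called lower was 24 without H471 and 20 without P28 (18% and 19.4% of all genes tested).

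The 1-day leaves also differed from the others in genes of the circadian clock and of light harvesting, and in Rubisco activase. The match of LHY, a clock gene expressed around dawn, was at 2.08, 1.53 and 1.49 FPKM in the controls of H471, P28 and HHZ, at 352.6, 425.8 and 388.5 FPKM after 1 day and at 10.6, 17.3 and 14.2 FPKM after 3 days. The match of LUX, an evening gene, was at 508.8, 559.9 and 493.0 FPKM in the controls, at 1.07, 1.59 and 1.20 FPKM after 1 day and at 102.0, 90.4 and 84.0 FPKM after 3 days. The 5 light-harvesting genes summed to 18950, 20688 and 21687 FPKM after 1 day in H471, P28 and HHZ. Their sums were 3990.5, 5096.5 and 4935.7 FPKM in the controls and 4591.6, 6499.9 and 6013.4 FPKM after 3 days. Rubisco activase stood at 7353, 10890 and 8678 FPKM after 1 day, against 210.7, 307.3 and 157.9 FPKM in the controls. The hour of sampling is not given in the sources used here, and the part of these differences in the 1-day values of the PPR genes was not tested.

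How the members were chosen bears on the counts of decreases. While 27 members reached an FPKM of 3 only in control columns, 5 reached it only in drought columns. In the controls 130 to 133 members stood at an FPKM of at least 3 (89.0% to 91.1%), in 1-day leaves 97 to 108 and in 3-day leaves 91 to 102. Among all 17470 genes chosen by the same level, 85.2% to 85.9% were at that level in the controls and 82.5% to 83.7% in the drought columns. Counts of decreases over the 146 members are therefore a description of this selection as well as of drought.

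Choosing the annotated genes by a mean FPKM of at least 3 over the 9 columns leaves 106 of the 146. After 1 day 27 of these were called higher and 29 lower (25.5% and 27.4%; 31.4% and 31.9% of the 15348 genes with that mean). After 3 days 14 were called higher and 28 lower (13.2% and 26.4%; 31.4% and 31.3% of the genes with that mean), and between 1 and 3 days 21 were higher and 33 lower (19.8% and 31.1%; 29.5% and 28.1% of the genes with that mean). Against control, the share of decreases was below that of all genes under this rule and above it under the rule by maximum. Between 1 and 3 days it was above that of all genes under this rule, and 26.7% against 26.9% under the rule by maximum. The share of increases after 3 days against control was under that of all genes by either rule. The median fitted difference of the 106 genes was 0.02 after 1 day and -0.13 after 3 days, against 0.0027 and 0.0064 in all genes with that mean.

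Counts also varied with the level of a gene, among members and among all genes. Of the 34 members with a mean of at least 10 FPKM, 35.3% were called higher and 26.5% lower after 1 day (33.8% and 32.7% of all genes at that level), and 29.4% and 11.8% after 3 days (34.3% and 31.8%). Of the 72 with a mean between 3 and 10, 20.8% were higher and 27.8% lower after 1 day (25.8% and 30.2% of all genes at that level), and 5.56% and 33.3% after 3 days (24.8% and 30%). The 40 with a mean under 3 passed only through their highest columns, so their counts are not read. Over all 231 annotated genes in the fit, 30 were called higher and 118 lower after 1 day (12.99% and 51.08%; 27.4% and 30.8% of all genes tested). After 3 days the numbers were 16 and 114 (6.93% and 49.35%; 27% and 30.1% of all genes tested). These genes too were chosen by their highest column.

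**Figure D3:**
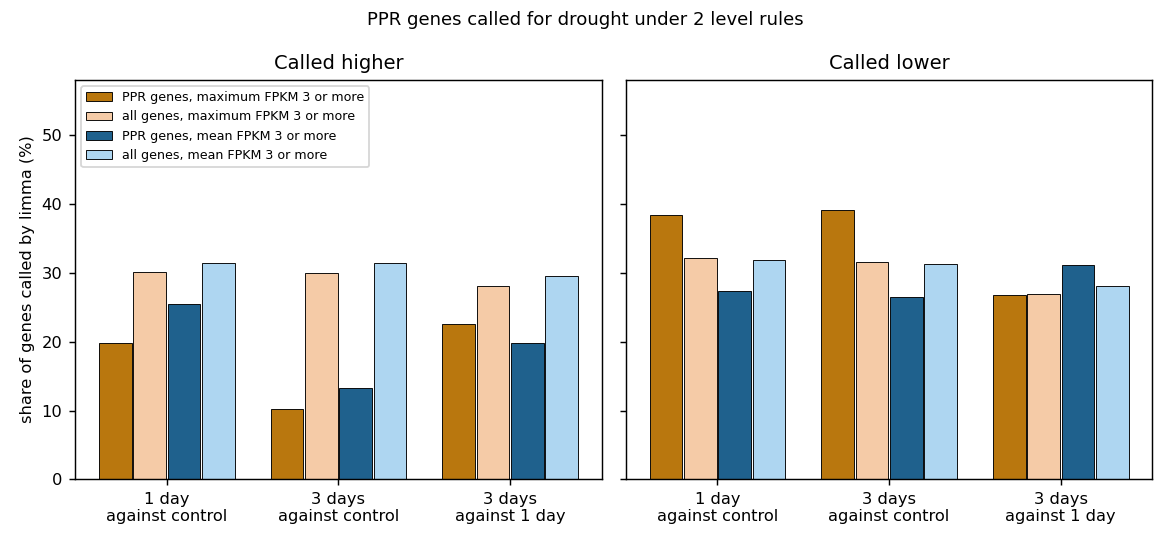
Share of genes called by limma (vertical axis, %), higher in the left panel and lower in the right, for 3 comparisons of conditions. Dark bars are PPR genes and pale bars all genes, chosen by a maximum FPKM of at least 3 (brown) or by a mean FPKM of at least 3 (blue). The share of PPR genes called higher after 3 days is 10.3% and 13.2%, against 29.9% and 31.4% of all genes, while the share called lower lies above or below that of all genes according to the rule.

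Within single genotypes, members were counted where log2(FPKM + 1) differed by at least 1, with no test. After 1 day, 4 members were higher and 25 lower in H471 (13.2% and 13.4% of all genes tested), 7 and 25 in P28 (12.2% and 14.9%), and 4 and 28 in HHZ (12.5% and 13.1%). After 3 days, 4 were higher and 15 lower in H471 (10.9% and 13.6%), 1 and 12 in P28 (9.09% and 13.5%), and 2 and 11 in HHZ (10.3% and 13.3%). After 1 day, 18 of the 34 members lower by this size in any genotype were so in all 3 (52.9%; 45.3% over all genes tested), and 4 of the 7 that were higher (57.1%; 51.4%). After 3 days 5 of 21 lower members (23.8%; 43.8%) and 1 of 5 higher members (20%; 41.8%) passed in all 3. The difference between members and all genes was not tested.

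Of the 23 members with a symbol, those with known plastid roles did not move alike. Both matches of CRR22, an editing factor for plastid transcripts including those of the NDH complex, were lower after 3 days than in the controls. LOC_Os06g02200, a member through its control columns alone and so lower by choice, was at 2.18, 2.00 and 2.21 FPKM in H471, P28 and HHZ, against 6.58, 5.49 and 5.53 FPKM in the controls, and had been lower still after 1 day, at 1.11, 1.12 and 1.14 FPKM. LOC_Os02g50280 was at 5.60, 4.82 and 6.28 FPKM after 3 days, against 12.7, 8.86 and 11.5 FPKM in the controls (-0.86 ± 0.11, limma adjusted p = 0.000476), and its 1-day difference of -0.26 had a limma adjusted p of 0.0725. The 2 genes share a best match but not the 1-day value.

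LOC_Os07g07620, the match of EMB175, a plastid protein needed by the embryo, turned direction between the days. It was at 6.85, 8.08 and 7.23 FPKM in the controls of H471, P28 and HHZ, at 9.91, 14.3 and 12.0 FPKM after 1 day and at 3.11, 4.16 and 5.42 FPKM after 3 days. The increase of 0.63 ± 0.14 after 1 day (limma adjusted p = 0.00631) and the 3-day difference of -0.70 ± 0.14 (limma adjusted p = 0.00423) both passed. The EMB1270 match showed the opposite order, with its lowest values after 1 day and its highest after 3 days. The MRL1 match, raised after 1 day, differed from control by 0.01 ± 0.11 after 3 days (limma adjusted p = 0.945), when the 3 expressed genes of the Rubisco small subunit summed to 417, 975 and 511 FPKM in H471, P28 and HHZ, against 7121, 7357 and 5550 FPKM in the controls.

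Members that share a mitochondrial match moved in 1 direction after 1 day but by different amounts. The 3 matches of PPR596 fell by 1.83 (LOC_Os01g17320), 0.68 (LOC_Os07g12140) and 0.44 (LOC_Os12g07260) on the log2 scale, and only the first was still called lower after 3 days. The 3 matches of PPR336, a protein found with mitochondrial polysomes, fell by 1.22 (LOC_Os01g58080), 1.17 (LOC_Os02g58300) and 0.68 (LOC_Os10g34370). The second of these is a member through its control columns alone, so the choice of members fixed its direction. After 3 days LOC_Os01g58080 was still called lower, by 0.81, and LOC_Os10g34370 was not (-0.22, limma adjusted p = 0.0627). LOC_Os02g58300 was lower by 1.09, and no test is given for it. The match of PPR40, a protein of mitochondrial complex III whose loss makes Arabidopsis sensitive to abscisic acid and salt, lay between 4.52 and 6.54 FPKM in all 9 columns and was called in none of the 3 comparisons of conditions. The 2 matches of EMB1796 differed, since LOC_Os11g24570 fell by 1.02 after 1 day and LOC_Os05g45760 stayed between 3.87 and 5.59 FPKM throughout. Whether genes with the same match share reads was not tested.

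Differences between genotypes were few. In P28 against HHZ, limma called 1 member higher (3.64% of all genes tested) and 2 lower (3% of all genes tested). LOC_Os04g52725 was at 2.94, 3.27 and 3.41 FPKM in the control, 1-day and 3-day leaves of P28, against 1.80, 1.33 and 1.52 FPKM in HHZ. It reached an FPKM of 3 in P28 alone, so its direction was fixed by the choice of members and no test is given. LOC_Os06g07550 was at 5.08, 6.19 and 8.79 FPKM in P28, against 7.35, 8.92 and 16.5 FPKM in HHZ (-0.59 ± 0.10, limma adjusted p = 0.0206). The EMB1270 match was at 11.4, 7.34 and 31.3 FPKM in P28, against 15.6, 9.16 and 44.1 FPKM in HHZ (-0.40 ± 0.08, limma adjusted p = 0.0373). LOC_Os06g07550 and the EMB1270 match kept their direction in every condition. All 3 calls were lost when the control, the 1-day, the 3-day or the H471 columns were left out.

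In H471 against HHZ, limma called no member higher (0.18% of all genes tested) and none lower (0.0438% of all genes tested). At an unadjusted p under 0.05, 3 members were higher (3.31% of all genes tested) and 7 lower (3.43% of all genes tested). The fitted difference was negative in 105 of the 146 members (71.9%; 54% of all genes tested), with a median of -0.09 against -0.01 over all genes.

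By size alone, differences between genotypes were as scarce. In the controls no member differed by 1 or more between P28 and HHZ (7.25% of all genes tested) or between H471 and HHZ (2.46%), and 2 did between H471 and P28 (6.77%). After 1 day the numbers were 1 for P28 against HHZ (6.76%), 1 for H471 against HHZ (3.41%) and 5 for H471 against P28 (7.66%). After 3 days they were 2 (6.24%), 2 (3.4%) and 3 (7.35%) for the same pairs. These counts came from 6 genes, which were singled out after their values were seen. Their differences within a condition are described without a test.

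**Figure D4:**
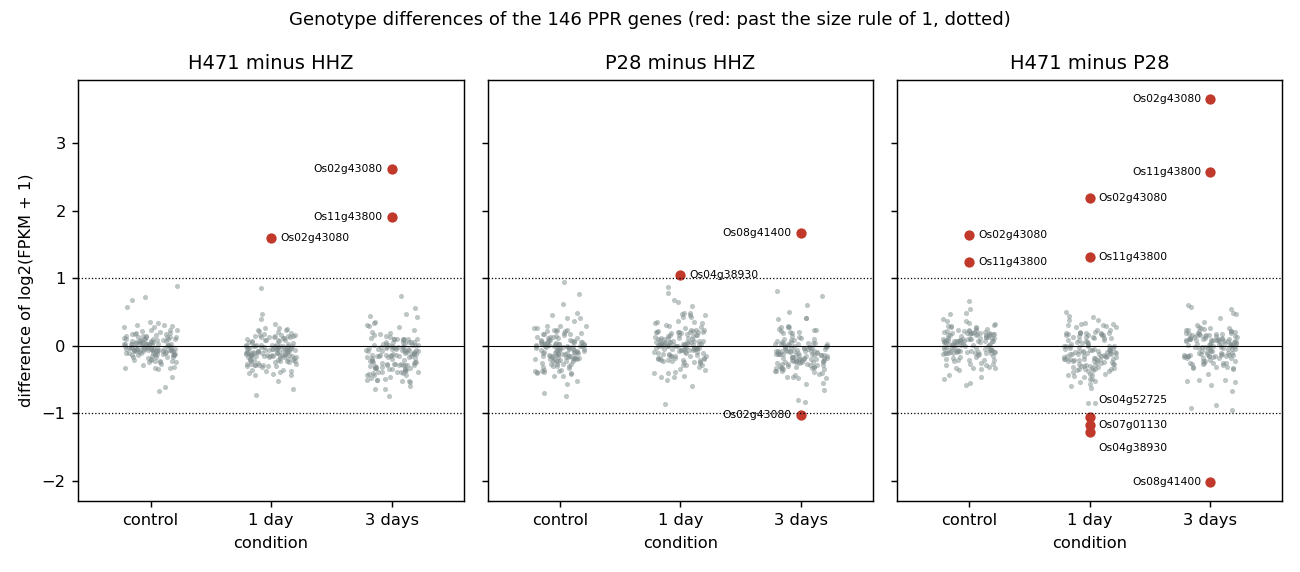
Difference of log2(FPKM + 1) between genotypes (vertical axis) for the 146 PPR genes in each condition (horizontal axis), 1 panel per pair of genotypes. Red points with names pass the size rule of 1 (dotted lines), and most other genes lie close to 0 in every panel.

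LOC_Os02g43080 stood out in H471. It was at 16.9, 30.2 and 69.9 FPKM in the control, 1-day and 3-day leaves of H471, at 4.74, 5.82 and 4.60 FPKM in P28 and at 8.66, 9.27 and 10.5 FPKM in HHZ. The H471 value exceeded that of HHZ 1.95-fold in the controls, 3.26-fold after 1 day and 6.68-fold after 3 days, and after 3 days it was 15.2-fold that of P28. The level in the introgression line therefore lay outside the range of both parents in every condition. The fitted H471 against HHZ difference of 1.71 ± 0.36 had a limma adjusted p of 0.253. The fit takes 1 genotype difference over the 3 conditions, so it does not describe an excess that differed between them.

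LOC_Os11g43800 showed a like order at a lower level. It was at 5.57, 9.59 and 17.1 FPKM in H471, at 1.77, 3.24 and 2.05 FPKM in P28 and at 3.00, 4.83 and 3.84 FPKM in HHZ, and its fitted difference of 1.16 ± 0.27 between H471 and HHZ had a limma adjusted p of 0.315. The FPKM of LOC_Os02g43080 was 1.80 to 4.08 times that of LOC_Os11g43800 in the 9 columns. Whether these 2 genes are near-identical copies whose reads were split in counting was not tested, so each level is uncertain.

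The other 4 genes were highest in P28. LOC_Os08g41400 was at 6.74, 4.50 and 1.82 FPKM in H471 under control conditions, after 1 day and after 3 days, at 8.33, 7.01 and 10.4 FPKM in P28, and at 6.60, 4.00 and 2.59 FPKM in HHZ. The genotypes were close in the controls and apart after 3 days. LOC_Os04g38930 was at 7.84, 7.14 and 7.87 FPKM in P28, against 5.84, 2.92 and 4.87 FPKM in HHZ, and LOC_Os07g01130 was at 4.66, 8.28 and 6.59 FPKM in P28, against 3.73, 4.39 and 3.55 FPKM in HHZ. H471 lay below P28 in all 3 conditions for both genes. It did so too for LOC_Os04g52725, whose direction was fixed by the choice of members.

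**Figure D5:**
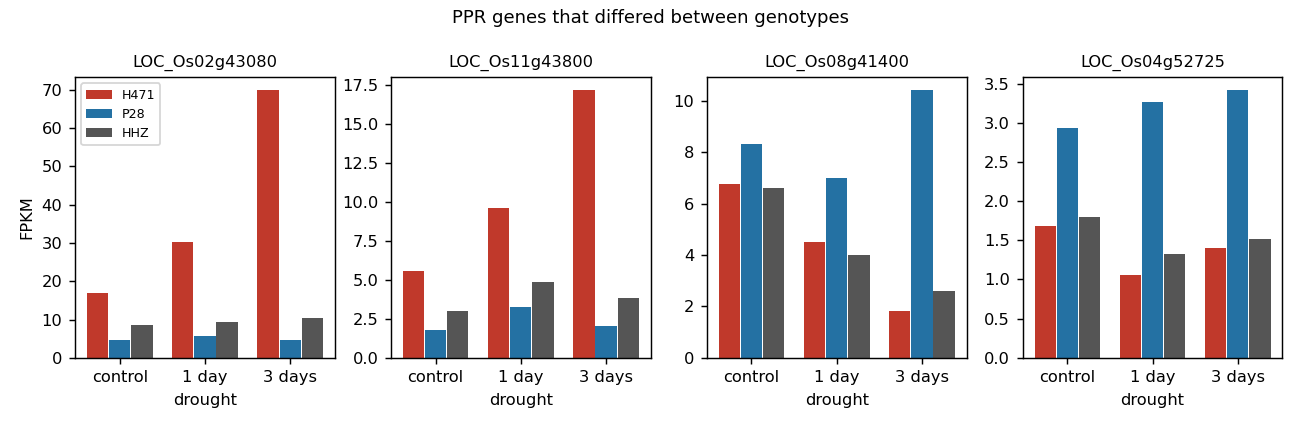
FPKM (vertical axes, linear from 0) of 4 PPR genes in the control and after 1 and 3 days of drought, with bars for H471, P28 and HHZ, each the authors' pooled value. LOC_Os02g43080 reaches 69.9 FPKM and LOC_Os11g43800 17.1 FPKM in H471 after 3 days, and LOC_Os08g41400 and LOC_Os04g52725 are highest in P28 in every condition. LOC_Os04g52725 is a member through P28 columns alone, so the choice of members fixed its direction.

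Other repeat and organelle gene lists were counted by the same rules, from keywords chosen with earlier results of these data known. The tetratricopeptide list is broad. It holds matches of Arabidopsis PPR proteins, CRR21 and OTP84 among them, and genes of hormone signalling and of nuclear RNA processing. Of its 208 genes that reached an FPKM of 3, 48 were called higher and 64 lower after 1 day, and 49 and 72 after 3 days. Of 28 mTERF genes, whose proteins bind organelle nucleic acids, 5 were higher and 9 lower after 1 day, and 9 and 9 after 3 days. CRM-domain genes, which encode plastid splicing factors, had 5 higher and 3 lower of 13 after 1 day, and 5 and 2 after 3 days.

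The plastid transcription list had 7 higher and 5 lower of 16 genes after 1 day, and 3 and 4 after 3 days. Organelle ribosomal proteins had 3 higher and 5 lower of 11 after 1 day, and 2 and 3 after 3 days. The 4 editing partner genes encode proteins that act beside PPR editing factors. After 1 day 3 of them were called lower and 0 higher. After 3 days 1 was called lower and 2 higher than in the controls. All 4 were called higher after 3 days than after 1 day. Of all 17470 genes that reached an FPKM of 3, as these genes had to, 30.1% were called higher and 32.1% lower after 1 day. After 3 days 29.9% were higher and 31.5% lower than in the controls, and 28.0% were higher than after 1 day. The lists were not tested against these shares.

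The limit that chose the members fell among genes of like level. The 3 members with the lowest maxima were LOC_Os08g28830 (3.03 FPKM), LOC_Os05g06150 (3.06 FPKM) and LOC_Os01g68070 (3.10 FPKM). The 3 annotated genes just outside it had maxima of 2.95 (LOC_Os01g55960), 2.95 (LOC_Os12g01850) and 2.93 FPKM (LOC_Os01g15840), each in a control column. The members lie on all 12 chromosomes by their locus names, from 5 on chromosome 9 to 22 on chromosome 3.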

How the data were processed

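Leaf RNA of 3 rice genotypes in 3 conditions was sequenced in 18 libraries, depleted of ribosomal RNA per the study's methods. The authors aligned reads with TopHat and deposited FPKM from Cufflinks, normalised for transcript length and library size, with both libraries of a group pooled in 1 of 9 columns. The sources used here do not give tool versions. Depth per library is not in these values, so no counting interval is given. Columns were matched to groups by the library descriptions, and 0 value columns were left unmapped.

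Rows whose description contains "pentatricopeptide" and whose FPKM reached 3 in at least 1 column are the members. Members, role lists and partner lists were chosen with earlier results of these data known. limma 3.58.1 (R 4.3.3, trend on mean level) was fitted to log2(FPKM + 1) of genes that reached an FPKM of 1 in any column, with Benjamini-Hochberg adjustment, and was tested on simulated data. Tables were handled with Python 3.11.15, pandas 2.3.3 and numpy 2.4.6, and drawn with matplotlib 3.10.9. The size rule is a difference of at least 1 on that scale. Genes named are the 10 highest means, the 5 largest called differences in each direction of each fitted comparison, members with a listed role, and the 3 genes on either side of the FPKM limit. Genes named outside this rule are other members with a symbol, the steadiest member and 5 members that differed between genotypes, all chosen after their values were seen. Alternatives changed the pseudocount, the filter, the scaling, the trend, the thresholds, the level rule and the columns fitted. Gene coordinates, promoters and protein sequences were not analysed here.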

Additional observations from a re-analysis of the deposited data

Results flagged for a closer look

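2 members had 3-day differences from control that carried opposite signs in H471 and P28 and lay more than 1 apart on the log2 scale. The difference was not tested, since each group has 1 pooled value. LOC_Os02g43080 differed from control by 1.99 on the log2 scale in H471 and by -0.03 in P28, where the value was close to that of the control, a gap of 2.02. LOC_Os08g41400 differed by -1.46 in H471 and by 0.29 in P28, a gap of -1.75. In HHZ, the background of H471, LOC_Os08g41400 was likewise lower after 3 days than in the control.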

How the results depend on the processing

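No paired analysis was possible because the columns pool both libraries of a group and carry no replicate number. Planned sequence features were not run. Of 149 alternative counts, 98 stayed within 1.5 times the value given and 51 did not. Of 234 alternative values of named genes, 213 kept their direction and call, 21 lost the call and 0 reversed.

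After 1 day, 18 members were called higher without the P28 columns and 19 without the HHZ columns (22% and 20.3% of all genes tested). Members by mean level gave 29 lower after 1 day and 28 after 3 days (31.9% and 31.3% of all genes with that mean). Every annotated gene in the fit gave 118 and 114 lower (30.8% and 30.1% of all genes tested). After 3 days the number higher was 6 without H471, 7 without P28 and 3 without HHZ (20%, 22.3% and 17.8% of all genes tested). It was 2 at an adjusted p under 0.01. The number lower was 37 without H471 and 36 without HHZ (22.5% and 21.4% of all genes tested). Between 3 days and 1 day, the number higher was 21 without HHZ (15.5% of all genes tested). By mean level it was 21 (29.5% of all genes with that mean) and over every annotated gene 52 (25.3% of all genes tested). The number lower was 24 without H471 and 20 without P28 (18% and 19.4% of all genes tested), and 25 at an adjusted p under 0.01.

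For P28 against HHZ, median-ratio scaling gave 2 higher (3.74% of all genes tested). Without the control, 1-day, 3-day or H471 columns 0 were higher (1.21%, 0.909%, 1.05% and 1.73% of all genes tested). By mean level 0 were higher (3.45% of all genes with that mean), as at an adjusted p under 0.01. limma without a trend gave 1 lower (2.78% of all genes tested). In the same fits without columns 0 were lower (1.31%, 0.729%, 0.827% and 1.48% of all genes tested), as at an adjusted p under 0.01. With a 1.5-fold size rule, members past it after 1 day were 61 in H471, 63 in P28 and 62 in HHZ, and after 3 days 45, 45 and 42. Between genotypes that rule gave 5 for P28 against HHZ, 5 for H471 against HHZ and 4 for H471 against P28 in the controls, 8, 4 and 9 after 1 day, and 8, 7 and 9 after 3 days. A pseudocount of 0.1 gave 23 for HHZ after 3 days, 1 for P28 against HHZ in the controls and 4 after 1 day, 3 for H471 against HHZ after 1 day and 7 for H471 against P28 after 3 days. The causes were not tested, beyond the smaller number of columns or genes that some of these fits use. Shares of all genes were not counted at an adjusted p under 0.01, under the 1.5-fold rule or by size with a pseudocount of 0.1.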
